A study of Luffa aegyptiaca with 4 samples.

Results

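The transcripts described here are those of the sponge gourd, Luffa aegyptiaca, that were present in both control libraries and listed at exactly 0 in both libraries from heat-stressed tissue. They were chosen from the FPKM values themselves (fragments scaled for transcript length and library size): at least 2 FPKM in each control library, 0 in each heat library, and no lipoxygenase name. The rule selected 109 of 48619 rows of the table, or 0.719% of the 15151 rows without a lipoxygenase name that reached 2 FPKM in both controls. Because the rule used the contrast of heat with control, the levels below are a description and that contrast is not tested for these transcripts. All 109 carry an ID number and no gene name, so no role can be given to any of them. Every numbered row has the suffix t01, so the table holds 1 transcript per number and no second isoform of any of the 109 could be compared.

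In leaves, fruits and other organs of flowering plants, heat triggers a broad change of the transcript pool. Heat shock factors switch on genes for chaperones, while many genes that serve growth are transcribed less and some messenger RNAs are degraded. Whether the transcripts described here belong to that second class was not tested.

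The study sequenced RNA from 4 libraries, 2 of control and 2 of heat-stressed tissue, each group labelled as biological replicates 1 and 2. The labels give no cultivar, plant age, organ, temperature or duration. They neither say whether replicates were single plants or pools nor name a sequencing batch. The tissue could not be checked against marker genes, since the rows other than lipoxygenases have no names. Summed FPKM was between 551921 and 599611 per library, and between 22556 and 24068 rows were above 0, with both heat libraries above both controls in that number. In bulk tissue, fewer cells of a type and less RNA per cell cannot be told apart. A value of 0 in such a table can also be an estimate that failed, and the heat libraries held examples of a 0 beside a high value. Luffa_aegyptiaca20887.t01 stood at 1529 and 1099 FPKM in control replicates 1 and 2, at 0 in heat replicate 1 and at 141 FPKM in heat replicate 2. The 109 transcripts are therefore called listed at 0 under heat, not lost, and no fold is given for them.

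Most of the 109 were modest in the controls. Their control values ran from 2.05 to 212 FPKM in replicate 1, with a median of 4.19, and from 2.03 to 177 FPKM in replicate 2, with a median of 3.78. The other 15042 transcripts at 2 FPKM or more in both controls had medians of 13.5 and 13.2 FPKM in the respective libraries. A control mean of at least 10 FPKM was reached by 13 of the 109 (11.9%), against 60.1% of those others. A mean of at least 20 FPKM was reached by 5 of the 109. Together the 109 made up 0.157% and 0.140% of summed FPKM in control replicates 1 and 2.

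A single transcript, Luffa_aegyptiaca45528.t01, stood far above the rest, at 212 FPKM in control replicate 1 and 177 FPKM in control replicate 2. It held 24.1% and 22.3% of the summed FPKM of the 109 in those libraries. Luffa_aegyptiaca26121.t01 came next, with 39.9 and 32.1 FPKM in control replicates 1 and 2. Its values lay below those of 45528 in both libraries by more than the spread between replicates of either.

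Luffa_aegyptiaca36007.t01 stood at 31.4 and 33.9 FPKM in the same order, so its range overlapped that of 26121 and their order is not separated by the replicates. Luffa_aegyptiaca40224.t01 stood at 30.7 and 19.1 FPKM, and Luffa_aegyptiaca35711.t01 at 20.6 and 23.6 FPKM. These last ranges overlap as well. At the low end were Luffa_aegyptiaca44283.t01, at 2.26 and 2.06 FPKM, and Luffa_aegyptiaca44202.t01, at 2.21 and 2.03 FPKM. Every one of these transcripts was listed at 0 in heat replicates 1 and 2.

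**Figure D1:**
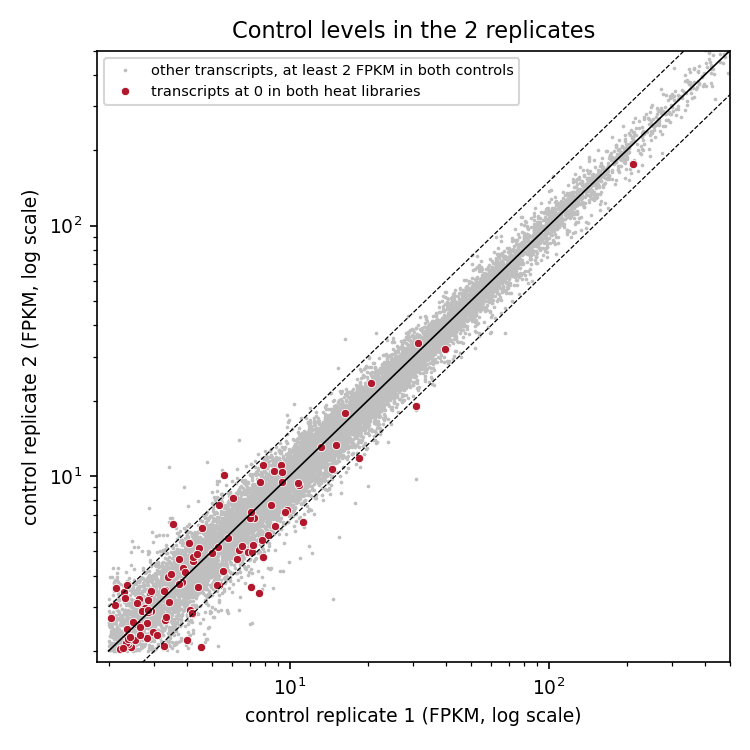
Each point is 1 transcript, with FPKM in control replicate 1 on the x axis and in control replicate 2 on the y axis, both on log scales that leave out the most abundant of the other transcripts; red points are the 109 transcripts listed at 0 in both heat libraries and grey points the others at 2 FPKM or more in both controls. The solid line marks equal values and the dashed lines a 1.5-fold difference, within which 95 of the 109 lie.

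The control replicates gave similar values for most of the 109. The median size of their difference was 0.25 on the log2 scale, a 1.19-fold difference, and 95 of 109 (87.2%) lay within 1.5-fold. For the other transcripts at 2 FPKM or more in both controls the median size was 0.13, and 97.8% lay within 1.5-fold. Control replicate 1 was the higher library for 65 of the 109 (59.6%) and for 53.9% of the others. The minimum of 2 FPKM in both libraries limits how far apart values near it can lie.

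The difference in spread was not the same at all levels. Where the lower control value was between 2 and 3 FPKM, the median size of the replicate difference was 0.21 among the 109 and 0.23 among the others. Between 3 and 5 FPKM it was 0.22 among 29 of the 109 and 0.20 among the others. Between 5 and 10 FPKM it was 0.31 among 26 of the 109 and 0.16 among the others. Between 10 and 20 FPKM it was 0.32 among 6 transcripts, of which 4 lay within 1.5-fold, against 0.12 and 99.4% among the others. At 20 FPKM or more it was 0.23 among 4 transcripts, all within 1.5-fold, against 0.095 and 99.7% among the others. Transcript lengths, which affect the spread of FPKM, are not in the table, so their part was not tested.

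The largest disagreement was that of Luffa_aegyptiaca18366.t01, at 7.60 FPKM in control replicate 1 and 3.40 FPKM in control replicate 2, a 2.24-fold difference. Luffa_aegyptiaca03381.t01 stood at 4.55 and 2.07 FPKM, a 2.19-fold difference, and Luffa_aegyptiaca27126.t01 at 7.07 and 3.60 FPKM, a 1.97-fold difference. Only the first and second of these exceeded 2-fold among the 109. In all 3 the higher value was in control replicate 1. Even their lower control value was above both heat values, as the rule requires.

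The share of transcripts listed at 0 under heat fell steeply with control level. Among transcripts whose lower control value was between 2 and 3 FPKM, 44 of 1244 (3.54%) were at 0 in both heat libraries. The share was 1.60% (29 of 1815) between 3 and 5 FPKM and 0.773% (26 of 3362) between 5 and 10 FPKM. It was 0.167% (6 of 3597) between 10 and 20 FPKM and 0.0779% (4 of 5133) at 20 FPKM or more. Nearly all transcripts well expressed in control thus had some signal in at least 1 heat library.

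The reverse pattern was commoner and reached higher levels. At 0 in both controls and at least 2 FPKM in both heat libraries were 272 transcripts, 1.95% of the 13984 that reached 2 FPKM in both heat libraries and 2.50 times the 109. Their shares by level ran from 5.47% between 2 and 3 FPKM to 1.03% between 10 and 20 FPKM, and were 1.30% (62 of 4769) at 20 FPKM or more. Of these 272, 70 (25.7%) had a heat mean of at least 20 FPKM, whereas 4.59% of the 109 had a control mean that high. Their heat medians were 5.92 and 6.22 FPKM in replicates 1 and 2, and 72.8% of them lay within 1.5-fold between the heat replicates.

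**Figure D2:**
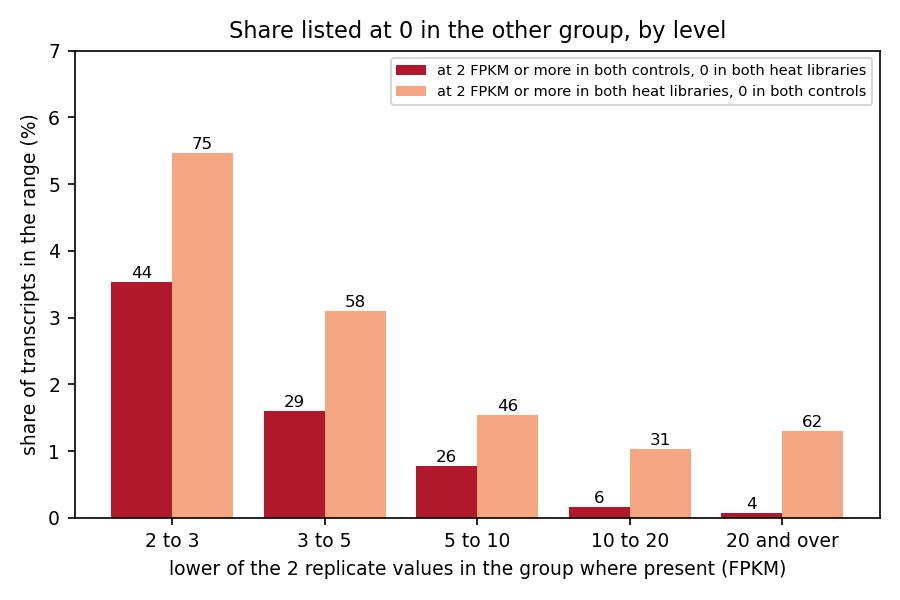
Bars give the percentage of transcripts listed at 0 in both libraries of the other group, by the lower of the 2 replicate values (FPKM) in the group where they were present; numbers above bars are transcripts. The share at 0 under heat goes from 3.54% to 0.0779%, while the share at 0 in control stays at 1.03% or more in every range.

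The line between the 109 and their nearest companions is a matter of small values. Just inside the control minimum, 26 of the 109 had a lower control value under 2.5 FPKM. Just outside it, 34 further transcripts at 0 in both heat libraries had a lower control value between 1.5 and 2 FPKM. Luffa_aegyptiaca27268.t01, named as a near miss after its values were seen, stood at 1.97 and 2.04 FPKM in control replicates 1 and 2. On the heat side, 123 transcripts at 2 FPKM or more in both controls were at 0 in heat replicate 1 only, and 101 were at 0 in heat replicate 2 only.

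The nonzero partner of those single zeros was usually low. It had a median of 0.306 FPKM in heat replicate 2 and 0.327 FPKM in heat replicate 1, and was at most 0.5 FPKM in 78 of the 123 and 71 of the 101. It reached 2 FPKM in 17 of the 123 and 5 of the 101. If a single heat library had defined the rule, 210 transcripts would have met it without heat replicate 1 and 232 without heat replicate 2, so the number rests on both heat libraries. Values above 0 and up to 0.05 FPKM in both heat libraries were found for 2 transcripts at 2 FPKM or more in both controls. These were Luffa_aegyptiaca22016.t01, at 6.62 and 9.57 FPKM in control and 0.0463 and 0.0115 FPKM under heat, and Luffa_aegyptiaca38486.t01, at 5.19 and 4.63 FPKM in control and 0.0344 and 0.0484 FPKM under heat. Both were named after their values were seen.

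Zeros were rarer between replicates than between groups. Among rows reaching 2 FPKM in control replicate 1, 0.212% (33 of 15553) were at 0 in control replicate 2. The share at 0 was 1.84% in heat replicate 1 and 1.67% in heat replicate 2. Within the heat pair, 0.262% of the rows reaching 2 FPKM in replicate 1 were at 0 in replicate 2, and 0.419% the other way round.

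The 109 were spread along most of the series of ID numbers, from 483 to 45886, while the series runs to 48614. The gap between successive members had a median of 266.5 numbers and ran from 1 to 2589. Of the 49 stretches of 1000 numbers, 38 held at least 1 of them, and the 11 without one held a median of 139 transcripts at 2 FPKM or more in both controls, against 359 in the others. The fullest stretch, 44000 to 44999, held 9 of the 109 among 527 such transcripts, and 19000 to 19999 held 7 among 375. Whether the numbers follow the order of genes along chromosomes is not given in the sources used here, and positions in the genome were not analysed here.

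**Figure D3:**
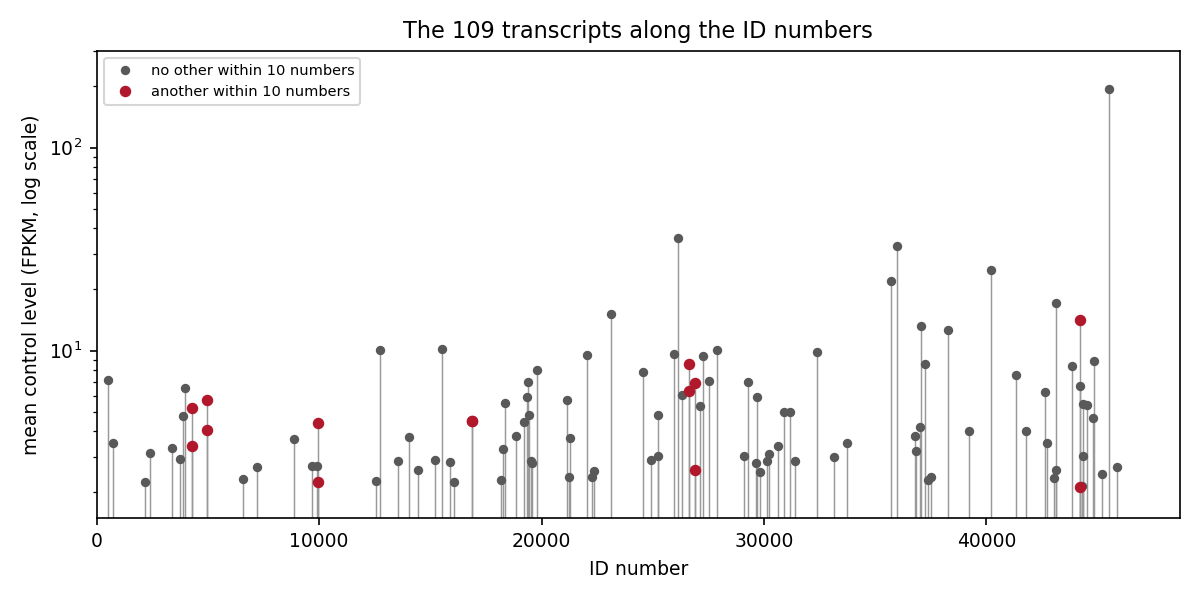
Each stem is 1 of the 109 transcripts, placed by its ID number on the x axis, with its mean control level in FPKM on a log scale on the y axis. Red points mark the 14 that have another of the 109 within 10 numbers.

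Of the 109, 14 had another within 10 numbers, and these formed 7 pairs, of which 4 were consecutive. How many such pairs 109 other transcripts present in control would form was not counted. The consecutive pairs were 04259 with 04260, 04956 with 04957, 26646 with 26647, and 44201 with 44202. The other pairs were 09954 with 09956, 16874 with 16876, and 26912 with 26915. Of these, 04260, 09954 and 26915 were named to complete their pairs.

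Partners had like control levels in some pairs and not in others. Luffa_aegyptiaca26646.t01 stood at 9.79 and 7.33 FPKM in control replicates 1 and 2, and Luffa_aegyptiaca26647.t01 at 7.89 and 4.76 FPKM. Luffa_aegyptiaca16874.t01 stood at 5.34 and 3.67 FPKM, and Luffa_aegyptiaca16876.t01 at 4.25 and 4.73 FPKM, with Luffa_aegyptiaca16875.t01 between them at 0 in every library. In both of these pairs the control ranges of the partners overlapped.

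In the other 5 pairs they did not. Luffa_aegyptiaca44201.t01 stood at 15.1 and 13.3 FPKM, while Luffa_aegyptiaca44202.t01 was near the minimum at 2.21 and 2.03 FPKM. Luffa_aegyptiaca04259.t01 stood at 5.27 and 5.20 FPKM and Luffa_aegyptiaca04260.t01 at 3.30 and 3.51 FPKM. Luffa_aegyptiaca04956.t01 stood at 3.87 and 4.27 FPKM and Luffa_aegyptiaca04957.t01 at 6.36 and 5.07 FPKM.

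The widest of these contrasts was thus in 44201 and 44202. Luffa_aegyptiaca26912.t01 stood at 7.03 and 6.80 FPKM, and Luffa_aegyptiaca26915.t01 at 2.11 and 3.06 FPKM. Luffa_aegyptiaca09954.t01 stood at 2.38 and 2.13 FPKM, and Luffa_aegyptiaca09956.t01 at 4.25 and 4.59 FPKM.

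The transcripts around the 109 were not chosen by the rule and could be read from a fit across the table. Of 18186 transcripts averaging 1 FPKM or more over the libraries, 42.5% were lower and 30.9% higher under heat (limma on log2(FPKM + 1), Benjamini-Hochberg adjusted p under 0.05). All 109 reach that mean by their control values alone, and all 109 were called lower, which the rule made likely and from which nothing is read. Within 5 numbers on either side lay 1024 transcripts outside the 109, of which 493 were tested. Of these, 251 (50.9%) were lower, 130 (26.4%) higher and 112 did not pass the test.

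The share of lower neighbours was therefore above the background by a modest amount, and the difference itself was not tested. The median change of the neighbours was -0.49 on the log2 scale, which was -0.29 after subtracting the table-wide median of -0.20. After rescaling by the median of ratios, 44.6% of the neighbours were lower and 30.5% higher, against 36.2% and 37.0% of all tested transcripts, and the median after that subtraction was -0.30. Neighbouring transcripts at 2 FPKM or more in both controls numbered 408, and 307 of them (75.2%) also reached 2 FPKM in both heat libraries. Among all transcripts at that control level 82.2% did so.

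The share of lower transcripts was highest next to the 109 and least at 5 numbers from them. At a distance of 1 number, 57 of 105 tested neighbours (54.3%) were lower and 23 (21.9%) had a fitted change of -2 or below on the log2 scale. At a distance of 5 numbers, 48 of 105 (45.7%) were lower and 7 (6.67%) had such a change. Of all tested transcripts, 10.5% had one. Next to the other transcripts that were lower under heat, the corresponding shares at a distance of 1 number were 48.3% and 13.1%. The 109 were left out as neighbours of each other. Around the other lower transcripts none were left out, so their neighbours included lower transcripts of the same set and some of the 109. These shares are counts of transcripts, which are not independent replicates, and many neighbours serve several transcripts in the larger sets.

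**Figure D4:**
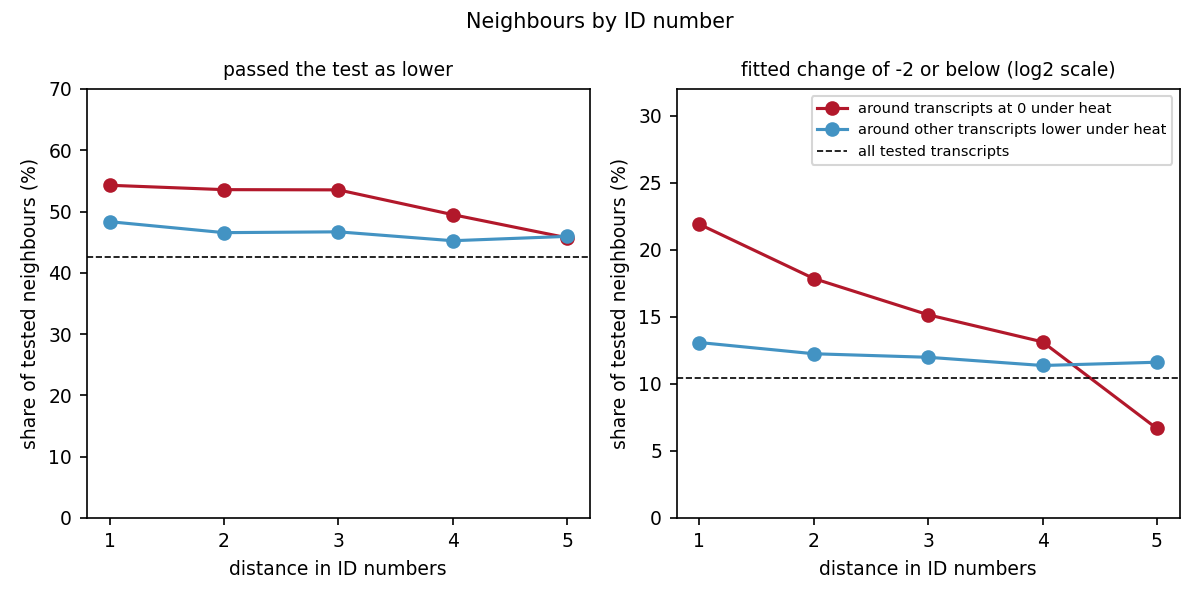
Both panels plot the distance in ID numbers on the x axis and a percentage of tested neighbours on the y axis, for neighbours of the 109 (red) and of the other transcripts lower under heat (blue); dashed lines are all tested transcripts. On the left is the share that passed the test as lower, from 54.3% to 45.7% around the 109. On the right is the share with a fitted log2 change of -2 or below, from 21.9% to 6.67%. The 109 are left out as neighbours in red, and no transcript is left out in blue.

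Among tested transcripts, absence under heat outside the list was rare by construction. A tested row at 0 in both heat libraries needs control values that average 2 FPKM or more. It is therefore one of the 109 unless a control value lay under 2 FPKM or the row has a lipoxygenase name. Without the members, 1 of 493 tested neighbours within 5 numbers (0.203%) was at 0 in both heat libraries. The share was 0.177% (32 of 18077) for all tested transcripts without the members. Leaving out the members largely set both shares, so nothing is read from their likeness, which was not tested. With members kept as neighbours of each other, the shares were 2.96% (15 of 507) and 0.775% (141 of 18186). The 15 are the 14 members of the close pairs and 1 other transcript. The rule itself set the members to 0, so nothing is read from these last shares. Without the minimum for testing, 15 of the 109 had a direct neighbour outside the list that was above 0 in at least 1 control and at 0 in both heat libraries. With members counted as neighbours, which the rule set to 0 under heat, it was 23 (21.1%). For the other transcripts present in control the share was 7.67% (1154 of 15042), with members counted as neighbours. The 15 of 109 found without members were also a larger share than that. No share without members was counted for the others, and neither difference was tested. Of the 109, 60 had a direct neighbour outside the list that reached 2 FPKM in both heat libraries (55.0%), and the share was 66.4% for the other transcripts present in control. Both direct neighbours were at 0 in every library for 13 of the 109 (11.9%), against 7.94% for those others. Many transcripts listed at 0 under heat thus stood beside one that was plainly read, though a smaller share than of the other transcripts present in control.

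Both lower-numbered neighbours of the most abundant member, 45528, fell under heat. Luffa_aegyptiaca45526.t01 went from 153.9 and 129.7 FPKM in control replicates 1 and 2 to 0.866 and 0.358 FPKM in heat replicates 1 and 2. Both heat values lay far below both control values (log2 change -6.48, standard error 0.19; limma, adjusted p = 5.00e-06). Luffa_aegyptiaca45527.t01, next to 45528, went from 8.27 and 6.32 FPKM to 1.37 and 0.258 FPKM (log2 change -2.25, standard error 0.32; limma, adjusted p = 0.00118).

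On the higher-numbered side of 45528 the changes were mixed. Luffa_aegyptiaca45529.t01 stood at 5.78 and 6.33 FPKM in control and at 8.38 and 7.99 FPKM under heat (log2 change 0.38, standard error 0.14; limma, adjusted p = 0.0460). Its groups did not overlap, but its call was lost with a replicate block (adjusted p = 0.0994), with no filter on low values (0.0576) and without any single library (0.0767 to 0.254). Luffa_aegyptiaca45530.t01 fell, from 14.4 and 13.6 FPKM to 4.64 and 3.34 FPKM (limma, adjusted p = 0.000348).

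Of the 8 neighbours within 2 numbers of 26121 and 36007, 5 fell and remained above 0 in both heat libraries. Among the 8, 26122 and 36009 were below the minimum for testing. Over the table, 42.5% of tested transcripts were lower. Luffa_aegyptiaca26120.t01 fell from 14.3 and 15.9 FPKM to 5.80 and 5.96 FPKM, with a log2 change of -1.22 (limma, adjusted p = 0.000353). Luffa_aegyptiaca26119.t01 fell from 52.9 and 56.4 FPKM to 34.8 and 32.4 FPKM, with a log2 change of -0.69. Luffa_aegyptiaca26123.t01 fell from 5.55 and 5.14 FPKM to 0.912 and 0.994 FPKM, with a log2 change of -1.70.

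Groups did not overlap in any of those 3 neighbours, while Luffa_aegyptiaca26122.t01 was above 0 in control replicate 1 only, at 0.318 FPKM. Luffa_aegyptiaca36005.t01 fell from 11.8 and 16.2 FPKM to 2.29 and 1.83 FPKM, with a log2 change of -2.28 (limma, adjusted p = 0.000145). Luffa_aegyptiaca36006.t01 fell from 9.58 and 8.99 FPKM to 2.20 and 4.51 FPKM, with a log2 change of -1.29 (limma, adjusted p = 0.00563). The call of Luffa_aegyptiaca36006.t01 was lost without control replicate 1 (adjusted p = 0.0808) and without control replicate 2 (0.0706).

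Luffa_aegyptiaca36008.t01 did not pass the test, at 2.29 and 2.81 FPKM in control and 2.28 and 1.46 FPKM under heat (limma, adjusted p = 0.218). Luffa_aegyptiaca36009.t01 was at 0 in every library. Each of the 3 most abundant members thus lay beside transcripts that fell without reaching 0 in both heat libraries. Falls were also common over the table, at 42.5% of tested transcripts.

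Around the 7 close pairs, the 2 numbers on either side and those in between held 32 transcripts, of which 19 were tested. Over the table, 42.5% of tested transcripts were lower and 30.9% higher, and 43.5% of rows were at 0 in every library. Of the 19, 12 were lower, 2 higher and 5 did not pass the test, and 8 of the 32 were at 0 in every library. The steepest was Luffa_aegyptiaca04958.t01, next to 04957, which went from 41.6 and 43.4 FPKM in control to 0.454 and 0.517 FPKM under heat (log2 change -4.87, standard error 0.14; limma, adjusted p = 4.72e-06). Luffa_aegyptiaca26648.t01, next to 26647, went from 27.5 and 22.3 FPKM to 0.101 and 0.0938 FPKM (log2 change -4.55; limma, adjusted p = 9.38e-06). Luffa_aegyptiaca04258.t01, next to 04259, went from 67.5 and 47.0 FPKM to 2.68 and 4.07 FPKM (log2 change -3.73; limma, adjusted p = 4.27e-05).

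These were named after their values were seen, and in each of the 3 both heat values lay below both control values. On the far side of the pair 26912 and 26915, Luffa_aegyptiaca26916.t01 rose, from 2.59 and 2.65 FPKM to 8.28 and 7.15 FPKM (limma, adjusted p = 0.000579). Around 44201 and 44202 all 4 flanking transcripts passed as lower, with log2 changes from -2.42 to -0.53. The smallest of these, that of Luffa_aegyptiaca44200.t01, lost its call after rescaling (adjusted p = 0.120), with no filter on low values (0.0509) and without either control replicate (0.168 and 0.132).

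A few members lay beside transcripts with the opposite pattern. A direct neighbour at 0 in both controls that reached 2 FPKM in both heat libraries was found for 4 of the 109 (3.67%), against 143 of the 15042 other transcripts present in control (0.951%). These pairs were named after their values were seen. Luffa_aegyptiaca37083.t01 stood at 13.3 and 13.0 FPKM in control, and the adjoining Luffa_aegyptiaca37084.t01 at 8.43 and 22.3 FPKM under heat, each at 0 in the other group.

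In each such pair, 1 number was read in control and the adjoining one under heat, and how reads were divided between like sequences is not given in the sources used here. Luffa_aegyptiaca21292.t01 stood at 3.74 and 3.71 FPKM in control, beside Luffa_aegyptiaca21291.t01 at 17.9 and 29.0 FPKM under heat. Luffa_aegyptiaca16069.t01 stood at 2.33 and 2.15 FPKM in control, beside Luffa_aegyptiaca16070.t01 at 20.5 and 17.2 FPKM under heat. Within 5 numbers the count was 7 of 109 (6.42%), against 4.23% of the others, and whether sequence similarity plays a part was not tested.

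The fourth of these members, Luffa_aegyptiaca45886.t01, lay within a run of very large rises, visible in the plot of its surroundings. It stood at 3.27 and 2.10 FPKM in control replicates 1 and 2. Its direct neighbour Luffa_aegyptiaca45885.t01 was at 0 in both controls and at 7.81 and 7.59 FPKM under heat. Beyond it, Luffa_aegyptiaca45884.t01 rose from 1.95 and 2.64 FPKM to 2628 and 2251 FPKM (log2 change 9.54, standard error 0.15; limma, adjusted p = 1.37e-06).

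On the other side, Luffa_aegyptiaca45887.t01 went from 23.2 and 24.7 FPKM to 16.7 and 13.7 FPKM and passed as lower (limma, adjusted p = 0.00709), a call lost after rescaling (0.0566) and without control replicate 1 (0.0654) or 2 (0.0889). Luffa_aegyptiaca45888.t01 fell from 42.6 and 41.1 FPKM to 16.3 and 15.6 FPKM (limma, adjusted p = 0.000116). At 6 numbers above the member, Luffa_aegyptiaca45892.t01 stood at 5.96 and 6.82 FPKM in control and at 6155 and 4900.1 FPKM under heat. A transcript at 0 under heat thus lay among numbers that were some of the most strongly read there.

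**Figure D5:**
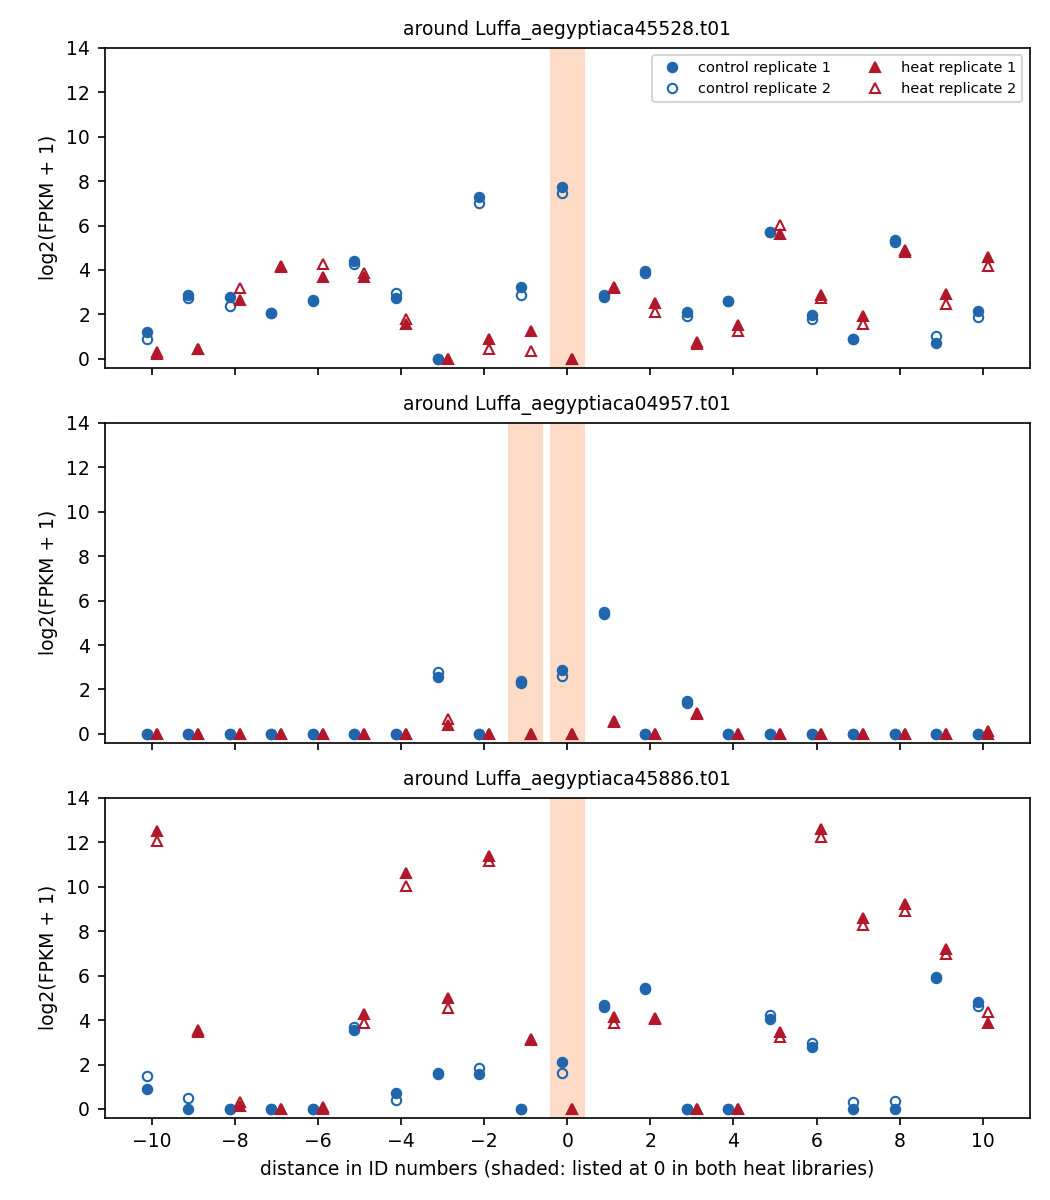
Each panel shows log2(FPKM + 1) of transcripts up to 10 ID numbers from a central one, in control (blue circles) and heat (red triangles) libraries, with filled symbols for replicate 1 and open for replicate 2; shading marks transcripts of the 109. Around 45528 the fall is shared by Luffa_aegyptiaca45526.t01, around 04957 by Luffa_aegyptiaca04958.t01 among numbers mostly at 0, and around 45886 the heat values reach 6155 FPKM while the member itself is at 0.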

How the data were processed

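The authors deposited 1 table of FPKM values, 1 column per library, from fastp 0.20.1, HISAT2 2.2.1 and StringTie 2.0, as named in the submitters' processing notes. The sources used here give no build, annotation, StringTie settings or rule for reads that map to several places. The unit leaves read depth unknown, so no counting interval is given. All 4 columns matched a sample title.

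The members and the sets compared with them were chosen with earlier results of these data known. Members, levels, replicate differences (log2 FPKM) and ID distances were computed in Python 3.11.15. The fit used limma 3.58.1 in R 4.3.3 on log2(FPKM + 1), for transcripts averaging 1 FPKM or more, with the group as the only term and a mean-variance trend, two-sided. It was tested on simulated data in which only a small set of better expressed transcripts changed. In the real libraries most tested transcripts passed, and low levels were not covered by that simulation. P-values rest on the spread between 2 libraries per group, adjusted toward that of all tested transcripts at a like level. The labels call the libraries biological replicates, and how much of that spread is technical is not known. Named were the 5 highest and 2 lowest members by control mean, the 3 with the largest replicate difference, up to 10 with another within 10 numbers, and the neighbours within 2 numbers of the 3 highest. Apart from partners named to complete pairs, every other transcript was named after its values were seen, whether marked so or not. Alternatives covered the thresholds, the pseudocount, the filter, rescaling, a replicate block, the distance and each library's omission.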

Additional observations from a re-analysis of the deposited data

How the results depend on the processing

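The number of transcripts listed at 0 under heat was 201 with a control minimum of 1 FPKM and 36 with 5 FPKM, against 109 as reported. It was 116 and 148 with heat values of up to 0.05 and 0.1 FPKM allowed, and 100 after median-of-ratios rescaling, all 100 among the 109. Leaving out 1 library at a time gave 136 to 232. The number of neighbours called lower was 57 at a distance of 1 number and 462 within 10 numbers, against 251 within 5, where fewer or more were counted. It was 164 when a mean of 5 FPKM was required and fewer were tested, and their share was then 50.9%. Without each library in turn it was 192 to 231, and the share stayed above that of all tested transcripts. With a replicate block 13149 transcripts passed, against 13352, and 245 neighbours were lower. Across transcripts, control and heat libraries of the same number deviated from their group means with a correlation of -0.0681, and the labels do not say that the numbers pair. The block ended no call of a named neighbour other than that of Luffa_aegyptiaca45529.t01. The median replicate difference was 0.20 on log2(FPKM + 1) and 0.26 after rescaling. Read depth and transcript length are unknown, so the level below which a 0 is uninformative cannot be stated.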

Other observations

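Zeros beside high values also occurred between the control replicates. Luffa_aegyptiaca29735.t01 stood at 79.0 FPKM in control replicate 1 and at 0 in the other 3 libraries. The adjoining Luffa_aegyptiaca29734.t01 was at 0 in control replicate 1 and stood at 65.2 FPKM in control replicate 2 and at 92.2 and 142.5 FPKM in heat replicates 1 and 2. Luffa_aegyptiaca43596.t01 stood at 145 FPKM in control replicate 1, at 0 in control replicate 2, and at 6.13 and 8.50 FPKM under heat. Luffa_aegyptiaca38500.t01 stood at 48.5 and 38.5 FPKM in control and 52.2 FPKM in heat replicate 2, and was at 0 in heat replicate 1. These transcripts were named after their values were seen.

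Of the lipoxygenases, which the rule left out by name, LOX11 and LOX15 had control values of 2 FPKM or more in both libraries and 0 in both heat libraries.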
